A study of Mus musculus with 8 samples.

Results

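The genes of MHC class II antigen presentation were followed through 8 single-cell RNA libraries from 2 mouse lung tumors. They are the classical chain genes H2-Aa, H2-Ab1 and H2-Eb1, the invariant chain gene Cd74, the transactivator gene Ciita, the peptide-exchange genes H2-DMa, H2-DMb1 and H2-DMb2, and the exchange-inhibitor genes H2-Oa and H2-Ob. These 10 members were chosen by symbol from the 27923 genes of the count tables, and all 10 were rows of the tables. Counts of unique molecular identifiers (UMIs, each standing for 1 captured transcript) were summed over the cells of each class and library and are given as counts per 1000000 UMIs (CPM), with the share of cells holding at least 1 UMI.

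The tumors came from the KP model of lung adenocarcinoma, in chimeric mice made from KP embryonic stem cells of C57BL/6 background, which carry floxed p53 (p53 fl/fl), placed in albino C57BL/6 blastocysts. Both mice received an adenovirus that expresses Cre from the surfactant protein C promoter at 12 weeks of age, and tumors were taken 16 weeks later. Each tumor came from 1 mouse, so tumor and mouse, and with them the sex of the animal, cannot be told apart. Sections were loaded with calcein NVOC, a dye that fluoresces after light exposure, the edge of the tumor was illuminated, and fluorescent cells were sorted as the Healthy/Tumor Border (1 library for each tumor), while cells without photoactivation were loaded on 3 Seq-Well arrays as the Whole Tumor. The 3 arrays of a tumor are technical, so p-values measure only the spread between these libraries.

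Of 4343 deposited barcodes, 3894 had at least 200 genes and were kept, between 328 and 620 in each library, and the libraries held 405627 to 2029200 UMIs. Xist, the RNA of the inactive X chromosome, lay at 399 to 609 CPM in all 4 Tumor 1 libraries and at 2.04 to 2.67 CPM in all 4 Tumor 2 libraries. The cell names inside the tables carry the other tumor's number. The deposited barcodes, 1634 of Whole Tumor 1, 686 of its border, 1489 of Whole Tumor 2 and 534 of its border, run the way of the labels. They equal, group by group, the cell numbers that the study's methods give. The labels were followed, and the direction of every comparison between tumors turns on them. Barcodes were placed in 18 classes from marker lists that hold none of the 10 members. The gate score of a list is the -log10 p of its UMIs over a Poisson background, with a threshold of 4. This gated 3249 barcodes, and 62 more passed it but led the next list by a score under 2. The satellite-transcript list names no cell type. It gated 805 of the 3249, with a median of 378 UMIs and summed chain genes at 1002 CPM, and counts among the 17 classes ordered below. The median of a class's own list lay between 31.8 and 612 UMIs per 10000, and the highest median of any other list in a class was 28.7, that of the keratin list in the surfactant class. The classes are marker-defined and are read as "-like": the C1q class is C1q macrophage-like, the Ccr7 class is Ccr7 dendritic-like, and so on. Over all kept barcodes, 226 had a highest gate score between 3 and 5, on either side of the threshold of 4.

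MHC class II molecules show peptides from the endosomes of a cell to CD4+ T cells. The alpha and beta chains assemble on the invariant chain, cathepsins trim the invariant chain to a fragment that fills the groove, and H2-DM exchanges that fragment for peptide while H2-DO restrains H2-DM. Transcription of these genes depends on Ciita, which is recruited to factors bound at the conserved X and Y boxes of their promoters. Dendritic cells, macrophages and B cells are the known presenters, and alveolar type II cells of the lung are known to carry class II as well.

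In GENCODE's annotation of GRCm38, 8 of the 10 genes lie on chromosome 17 between 34092340 and 34316674, a span of 224.3 kb. Ciita lies on chromosome 16 from 10480059 to 10528418. H2-Eb1 and H2-Oa each overlap an antisense gene, Ciita overlaps Dexi and H2-DMa overlaps Brd2, so some reads of these loci may belong to a neighbour. H2-DMb1 and H2-DMb2 share an identical transcript run of 221 bases, against 37 bases for the next pair, which makes the split of reads between them uncertain.

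RefSeq promoter windows (GRCm38.p6, 250 bases before to 50 after the start) were matched for 7 of 9 genes looked up, as 8 windows. They were searched for the Y box letters TGATTGG and the X box letters CTAGNAAC on both strands. The Y box letters were in 6 of the 8 windows, against 7.82% of 32851 promoter windows of the same length, and the X box letters were in 3, against 3.62%. The stretch around the Y box letters is shown for those 6 windows, so that the letters can be read in place, and the 7 Y box letters are what the 6 have in common. Capitals mark the 2 motifs, which do not overlap.
H2-Oa, chr17:34092284-34092350, plus strand: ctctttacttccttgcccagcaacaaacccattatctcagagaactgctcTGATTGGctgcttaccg
H2-DMb2, chr17:34145107-34145173, plus strand: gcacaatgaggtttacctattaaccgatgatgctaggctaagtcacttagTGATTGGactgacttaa
H2-DMb1, chr17:34153078-34153144, plus strand: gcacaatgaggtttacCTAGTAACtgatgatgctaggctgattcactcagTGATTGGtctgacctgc
H2-Ob, chr17:34238796-34238862, plus strand: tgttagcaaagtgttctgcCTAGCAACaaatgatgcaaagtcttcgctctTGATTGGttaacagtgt
H2-Aa, chr17:34287857-34287923, minus strand: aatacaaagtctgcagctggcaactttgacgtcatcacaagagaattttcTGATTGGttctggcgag
H2-Eb1, chr17:34305756-34305822, plus strand: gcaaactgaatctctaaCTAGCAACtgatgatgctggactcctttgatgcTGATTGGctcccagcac

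In the windows of H2-DMb1, H2-Ob and H2-Eb1 the X box letters ended 26, 23 and 25 bases before the Y box letters. The stretches of H2-DMb1 and H2-DMb2 were identical at 58 of 67 bases, and the next closest pair at 29. A match is a description of the letters and not a measured binding site, and the letters were in neither of the 2 windows of H2-DMa.

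The chain genes H2-Aa, H2-Ab1 and H2-Eb1, which encode the alpha chain of I-A and the beta chains of I-A and I-E, were led by dendritic cells and macrophages. Their summed level, pooled over libraries, was 32199 CPM in the 13 conventional dendritic cells, 26037 CPM in 56 Ccr7 dendritic cells and 16182 CPM (95% interval 15925 to 16442) in 180 C1q macrophages. It was 13653 CPM in Mmp12 macrophages, 8293 CPM (8000 to 8594) in 142 B cells and 4883 CPM in 90 alveolar macrophages. Intervals on pooled counts and shares are exact Poisson and Clopper-Pearson intervals and cover counting error only. Of the 16 neighbouring pairs in the order of the 17 classes reported, 15 had overlapping library values, and the exception was Mmp12 macrophages over B cells, so the order is mostly one of pooled values. Mmp12 macrophages, conventional dendritic cells, monocytes and plasmacytoid dendritic cells each had only 1 library with at least 5 cells, so the exception rests on a single Mmp12 value of 12154 CPM against a highest B cell value of 11029 CPM.

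The order by level was not the order by share of cells. At least 1 UMI of the chain genes was present in 98.6% of B cells, 92.3% of conventional dendritic cells, 81.7% of C1q macrophages and 58.9% of alveolar macrophages. Of cells with at least 1000 UMIs, all of H2-Aa, H2-Ab1, H2-Eb1 and Cd74 were detected together in 116 of 125 B cells (92.8%), 44 of 54 Ccr7 dendritic cells, 121 of 172 C1q macrophages and 34 of 87 alveolar macrophages. No B cell of that depth lacked all 4 genes, while 27 C1q macrophages and 26 alveolar macrophages did.

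T cells and innate lymphoid cells had low levels, and how much of these was stray RNA from other cells was not tested. The chain genes had a UMI in 11.1% of T cells (median depth 2328.5 UMIs), 9.76% of group 2 innate lymphoid cells (3070 UMIs) and 16.1% of NK cells (1847 UMIs), at pooled levels of 109, 29.7 and 369 CPM. Neutrophils, the largest class with 1377 cells, had a UMI in 8.71% of cells at a median depth of 2206 UMIs, a share no higher than in T or NK cells. Of the stromal classes, fibroblasts were at 96.2 CPM pooled and endothelial cells at 423 CPM, with 348 to 2233 CPM in the 3 libraries that held at least 5 endothelial cells. In Whole Tumor 2, 17 of 31 endothelial cells had no UMI of the chain genes and Cd74.

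**Figure D1:**
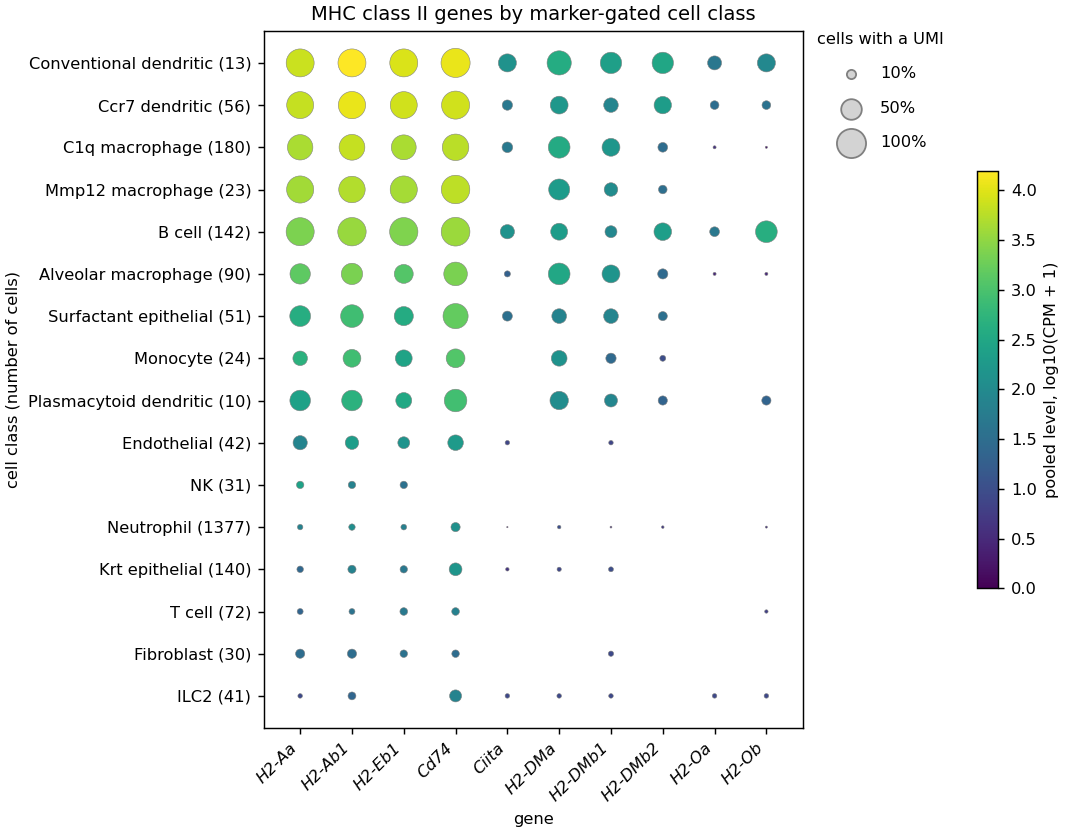
Level and detection of the 10 class II genes (columns) in the marker-defined cell classes (rows, without the satellite-transcript class), all libraries pooled. Colour gives log10(CPM + 1) and dot size the percent of cells with at least 1 UMI; B cells carry H2-Ob at 428 CPM while C1q macrophages hold 1 UMI of it.

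Within a class the libraries varied. In C1q macrophages the summed chain genes were at 31118, 27449 and 25563 CPM in the 3 Whole Tumor 2 arrays, 19656 CPM in the second Whole Tumor 1 array and 10648 CPM at the Tumor 2 border. The border library was the lowest of these 5. In Ccr7 dendritic cells they were at 12384, 2344 and 6490 CPM in the Whole Tumor 1 arrays and at 48427, 35627 and 34925 CPM in the Whole Tumor 2 arrays, with 26781 CPM at the Tumor 2 border. The Ccr7 values of the 2 tumors did not overlap, and this difference was not tested because the class had too few cells in an array for the fit. B cells varied less, at 4775 and 11029 CPM in the Whole Tumor 1 arrays with at least 5 cells, 8011, 8551 and 8181 CPM in the Whole Tumor 2 arrays, and 10252 CPM at the border of Tumor 2.

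**Figure D2:**
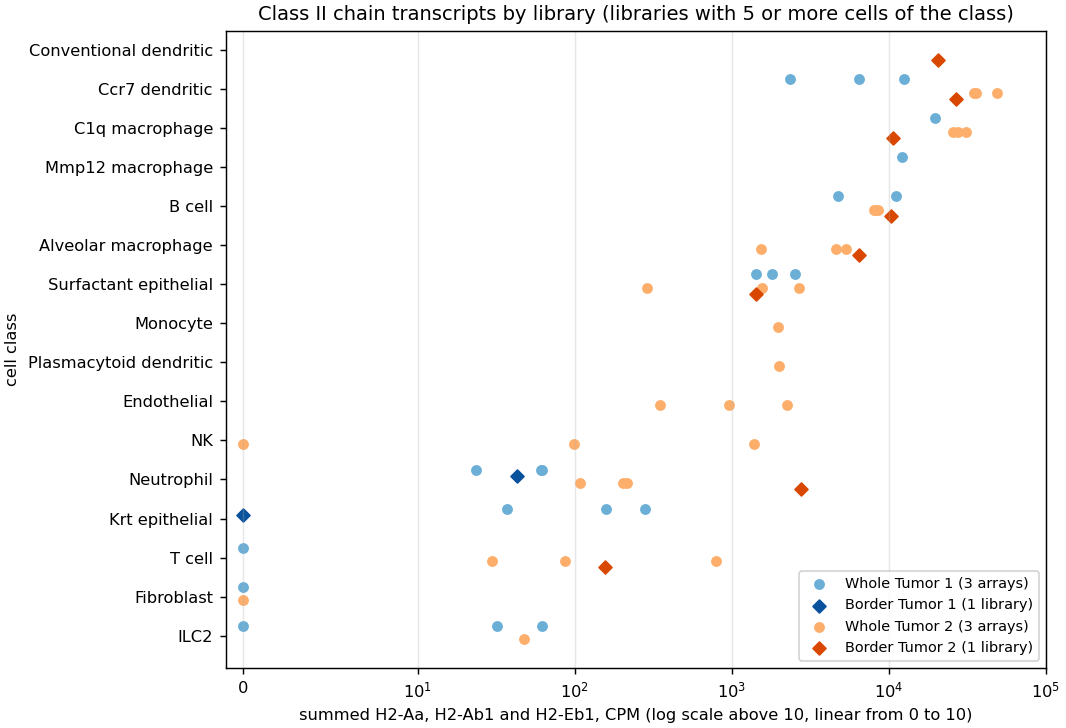
Summed H2-Aa, H2-Ab1 and H2-Eb1 in CPM (symmetric log axis) by cell class, 1 point for each library with at least 5 cells of the class, coloured by group. Ccr7 dendritic cells range from 2344 to 12384 CPM in Whole Tumor 1 and from 34925 to 48427 CPM in Whole Tumor 2.

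Cd74, the invariant chain that chaperones class II chains, made up a different part of the transcripts in epithelial cells than in the presenting classes. Of all UMIs of Cd74 and the 3 chain genes, Cd74 took 23.0% (95% interval 22.1 to 24.0) in Ccr7 dendritic cells, 26.6% (26.0 to 27.2) in C1q macrophages and 31.0% (29.6 to 32.4) in B cells. It took 49.6% (45.8 to 53.5) in the surfactant epithelial class and 52.1% (44.3 to 59.8) in the keratin epithelial class. The surfactant class gave 49.2% in Whole Tumor 1, 50.5% in Whole Tumor 2 and 47.2% at the Tumor 2 border, and each lies above the pooled value of the presenting classes. Monocytes were at 42.9%. These shares are compared between classes for the same genes and are no comparison of transcript levels between genes.

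The H2-DM genes, which encode the peptide exchanger, made up a larger share relative to the chain genes in alveolar than in C1q macrophages. H2-DMa, H2-DMb1 and H2-DMb2 made up 9.2% (8.1 to 10.3) of their sum with the chain genes there, 3.3% (3.0 to 3.6) in C1q macrophages and 1.7% in Ccr7 dendritic cells. The surfactant epithelial class had 10.5% (7.6 to 14.1) and B cells 5.8%. H2-DMa itself was at 317 CPM in alveolar macrophages and 360 CPM in C1q macrophages, and these levels lay closer to each other than those of the summed chain genes, at 4883 and 16182 CPM.

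The 2 genes for the H2-DM beta chain divided the classes. H2-DMb2 took 14.9% (8.2 to 24.2) of the UMIs of H2-DMb1 and H2-DMb2 in alveolar macrophages and 15.8% (10.8 to 22.0) in C1q macrophages. It took 57.1% in conventional dendritic cells, 71.2% in Ccr7 dendritic cells and 71.4% (62.1 to 79.6) in B cells. The intervals of B cells and of both macrophage classes do not overlap, within the limit that the transcripts share a long identical run.

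The H2-DO genes, which restrain H2-DM, were found in B cells and in dendritic cells. H2-Ob was at 262 and 248 CPM in B cells of the second and the third Whole Tumor 1 array, 516, 713 and 531 CPM in the 3 Whole Tumor 2 arrays and 432 CPM at the Tumor 2 border. Every library with at least 5 B cells thus held it, and 55.6% of all B cells (47.1 to 64.0) had a UMI. C1q macrophages had 1 UMI of H2-Ob in 180 cells, and T cells had a UMI in 1.39% of cells.

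H2-Oa, the partner chain, was sparse, with 47 UMIs in all kept barcodes, of which B cells held 17 and C1q macrophages 3. H2-DO made up 48.3% (43.0 to 53.6) of the summed H2-DO and H2-DM UMIs in B cells, 13.1% in Ccr7 dendritic cells and 0.8% in C1q macrophages. In the surfactant class H2-DO had 0 UMIs beside 40 of H2-DM, which allows up to 14.2 CPM of either gene.

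Ciita, the transactivator, was scarce everywhere, with 182 UMIs in 3.16% of barcodes. B cells had 181 and 124 CPM in the Whole Tumor 1 arrays, 91.0, 102 and 111 CPM in the Whole Tumor 2 arrays and 196 CPM at the Tumor 2 border. Pooled, this was 140 CPM, against 48.2 CPM in C1q macrophages, 46.2 CPM in Ccr7 dendritic cells and 33.0 CPM in the surfactant class. T cells, NK cells and fibroblasts held no UMI of it, which at 3 counts allows up to 16.3, 52.7 and 22.2 CPM, so NK cells cannot be placed below C1q macrophages at this depth.

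**Figure D3:**
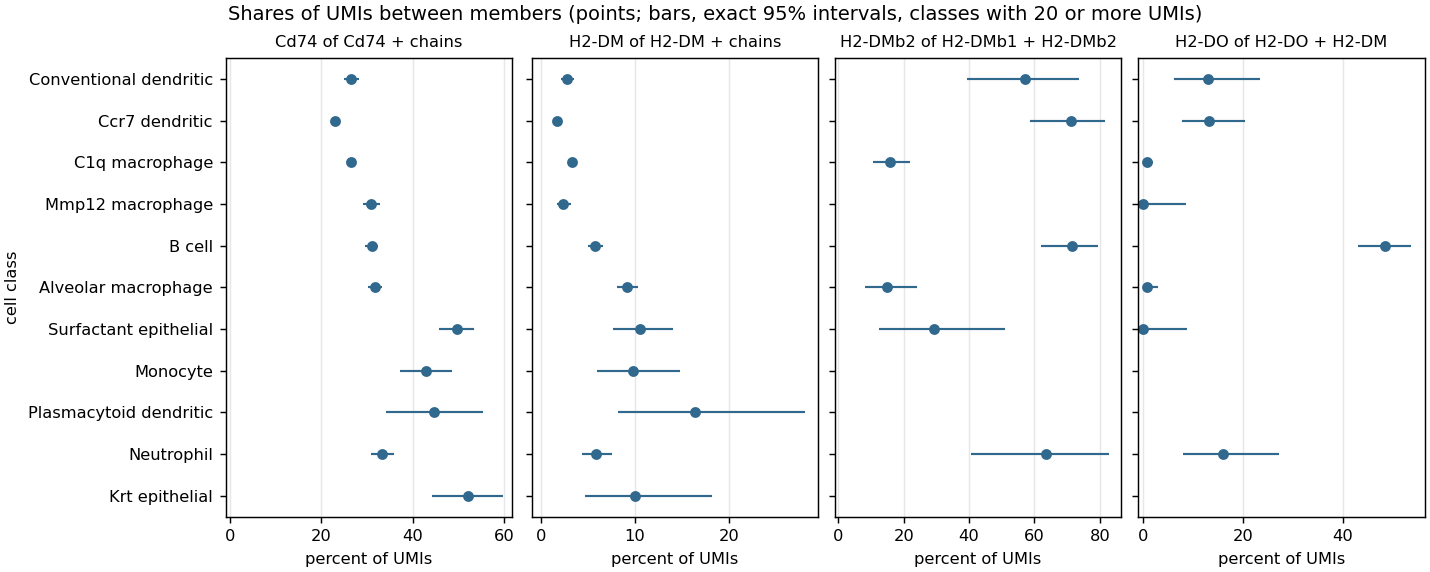
Shares of UMIs between members by cell class, pooled over libraries, for classes with at least 20 UMIs in the denominator; points are shares in percent and bars exact 95% binomial intervals. Cd74 takes 49.6% in the surfactant class and 26.6% in C1q macrophages, and H2-DO takes 48.3% of H2-DO and H2-DM in B cells.

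The design has B cells and C1q macrophages in the same libraries, which allows a direct comparison. In the 5 libraries with at least 5 cells of both, H2-Aa was at 1289 CPM in B cells and 5534 CPM in C1q macrophages of the second Whole Tumor 1 array. In the Whole Tumor 2 arrays it was at 2397, 3156 and 2495 CPM in B cells and at 8484, 8171 and 7994 CPM in C1q macrophages, and at the Tumor 2 border at 2563 and 2842 CPM. The macrophages were higher in all 5 libraries for H2-Aa, with the smallest gap at the border. For H2-Ab1 and Cd74 the border went the other way, with 5185 CPM in B cells and 4836 CPM in macrophages for H2-Ab1 and 4213 and 3562 CPM for Cd74.

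In the edgeR quasi-likelihood test with library as a block, 47.1% of the 2199 genes tested passed an adjusted p of 0.05, so a call is common in this comparison. Of 9 members tested, 5 were lower in B cells, against 30.2% of genes, and 2 were higher, against 16.9%. The log2 fold change was -1.86 ± 0.29 (SE) for H2-Aa, -1.96 ± 0.31 for H2-Ab1, -1.92 ± 0.29 for H2-Eb1, -1.47 ± 0.29 for Cd74 and -1.21 ± 0.38 for H2-DMa (adjusted p = 0.0080). H2-DMb2 was higher, at 2.35 ± 0.48 (adjusted p = 4.5e-05), and its level was 7.31 times that of C1q macrophages (interval 4.70 to 11.7). H2-Ob, the other of the 2, had 156 UMIs against 1, a ratio of 399 with a counting interval from 70.6 to 15866. It passed the filter on low counts only through B cells, where it is high, so its call is a description and not support. Ciita was at 1.36 ± 0.61 (adjusted p = 0.061) and H2-DMb1 at -1.05 ± 0.47 (adjusted p = 0.060), neither past the threshold.

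The genes that process antigen were measured in the same comparison. All 8 listed processing genes tested were lower in B cells, among them Ctss, the cathepsin S that trims the invariant chain, at 271 CPM against 4675 CPM and Lgmn, an asparagine endopeptidase, with a log2 fold change of -5.81. Of the 17 tested genes of the wider pathway list, 11 were lower, where 30.2% of all genes tested were lower. The kinase gene Jak1 was the 1 that was higher, where 16.9% of all genes were higher. The costimulatory genes Cd80 and Cd86, ligands of CD28, were among those that were lower. H2-Eb2, a class II beta chain gene outside the members, had 41 UMIs in B cells and 15 in Ccr7 dendritic cells.

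Epithelial cells fell into a surfactant class of 51 cells and a keratin class of 140 cells, which may each hold tumor and healthy cells. In the 3 Whole Tumor 1 arrays, H2-Ab1 was at 955, 627 and 1400 CPM in the surfactant class and at 172, 9.21 and 41.6 CPM in the keratin class. Cd74 was at 1098, 1608 and 2302 CPM against 140, 161 and 167 CPM. H2-Aa was at 382, 497 and 406 CPM against 48.3, 4.61 and 33.3 CPM. In each of these genes the surfactant class was higher in all 3 arrays, with no overlap.

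The test found 4 of 5 members higher in the surfactant class, against 5.5% of the 2019 genes tested that were higher (10.5% in either direction). The summed chain genes were at only 140 CPM, pooled, in the keratin class. They may have passed the filter on low counts mainly through the surfactant class, where they are high. The calls of H2-Aa, H2-Ab1 and H2-Eb1 are therefore a description and not support. The log2 fold change was 4.16 ± 0.64 for H2-Ab1, 4.06 ± 0.73 for H2-Aa, 3.33 ± 0.59 for Cd74 and 3.20 ± 0.65 for H2-Eb1, with the largest adjusted p of 5.0e-05. Over the 11 alternatives the value ran from 2.78 to 5.43 for H2-Ab1, 3.32 to 5.78 for H2-Aa, 2.54 to 4.04 for Cd74 and 2.42 to 5.68 for H2-Eb1. Among cells with at least 500 genes 3 members were called, as H2-Ab1, at 2.78, had an adjusted p of 0.072, and the adjusted p of the other 3 reached at most 0.034 under any alternative. H2-DMb1 was at 3.12 ± 1.45 (adjusted p = 0.16). Of 7 pathway genes tested 0 passed by edgeR, and 1, the cathepsin gene Ctsl, had an unadjusted p under 0.05 (-1.34 ± 0.64). Cathepsin H (Ctsh), which is also used in surfactant processing, was at 1010 CPM in the surfactant class and 512 CPM in the keratin class, while Ctss was at 28.3 and 10.4 CPM.

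Most surfactant cells carried the genes and most keratin cells did not. Of 27 surfactant cells in Whole Tumor 1, 4 had no UMI of the chain genes or Cd74, while 101 of 127 keratin cells (79.5%) had none. Cd74 alone had a UMI in 74.5% (60.4 to 85.7) of all surfactant cells and 19.3% (13.1 to 26.8) of all keratin cells, with median depths of 3420 and 2976.5 UMIs. T cells had 6.94% (2.29 to 15.5). Few cells carried much of the sum: 4 of 27 surfactant cells held 52.8% of its 400 UMIs in Whole Tumor 1.

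The surfactant class also held the genes in the other tumor. The summed chain genes were at 1814, 1425 and 2528 CPM in the Whole Tumor 1 arrays, 1546, 289 and 2684 CPM in the Whole Tumor 2 arrays and 1420 CPM at the Tumor 2 border, with 5 to 15 cells in each. The second Whole Tumor 2 array, of the lowest depth, was the low value. H2-DMa had 16 UMIs in the surfactant class and 4 in the keratin class, a ratio of levels of 10.9 (3.52 to 44.8), and Ciita had 7 and 2, a ratio of 9.55 (1.82 to 94.2). Against C1q macrophages, the Cd74 level of the surfactant class was 0.270 times as high.

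Immune markers in the surfactant cells were low but not 0. In the Whole Tumor 1 arrays the conventional dendritic list had no UMI. The C1q list was at 0 to 0.955 per 10000, with C1qb and C1qc at 0 in all 3 arrays, and the Ccr7 dendritic list was at 0.955 to 5.42, with 2 of its 9 genes detected in each array and Ccr7 at 0. The alveolar macrophage list was at 0.477 to 4.51 with 1 of 8 genes detected in each array. The B cell list was at 0 to 2.71 with at most 2 of 13 genes detected, against 0.0537 to 0.25 in the keratin class of the same arrays. With cells that carried an excess of a second marker list left out, the level of the chain genes was 2095 CPM in the surfactant class and 59.6 CPM in the keratin class, against 1604 and 140 CPM with them.

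**Figure D4:**
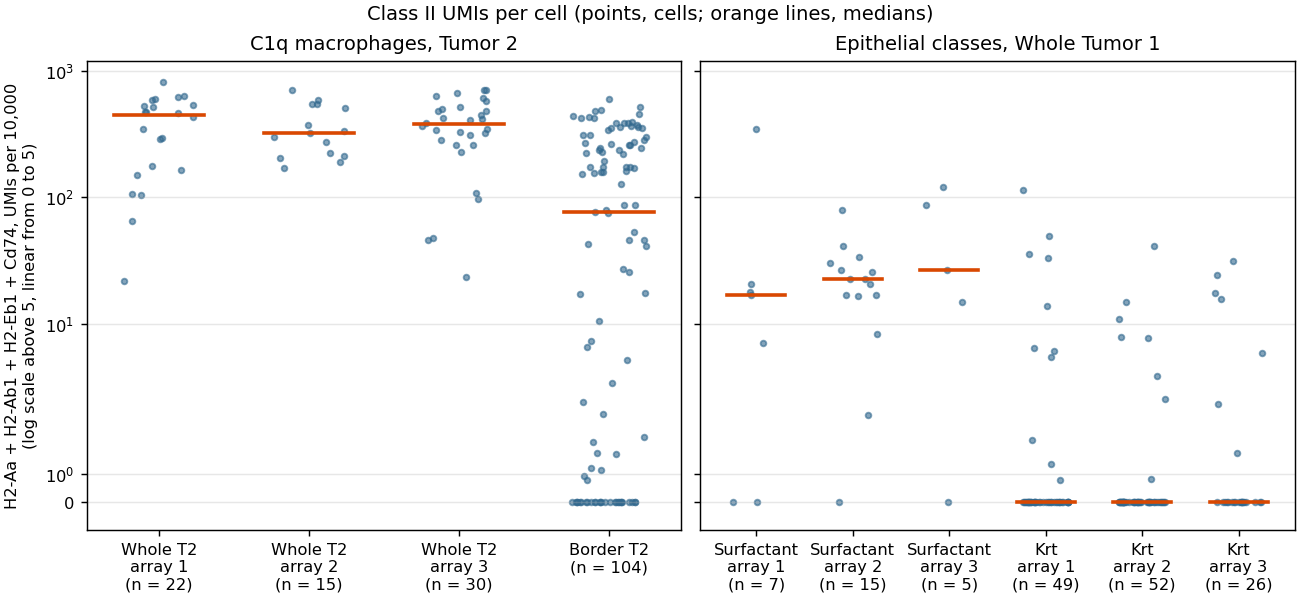
UMIs of H2-Aa, H2-Ab1, H2-Eb1 and Cd74 per 10000 in single cells, each point 1 cell, for C1q macrophages of Tumor 2 by library and for surfactant and keratin epithelial cells of the Whole Tumor 1 arrays. At the Tumor 2 border 27 of 104 C1q macrophages lie at 0, and none of 67 in the Whole Tumor 2 arrays do.

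The border of Tumor 2 held 104 C1q macrophages, and its Whole Tumor arrays 22, 15 and 30, which allows the border to be compared with the tumor within 1 class. Cd74 was at 3562 CPM at the border and at 9284, 11349 and 11250 CPM in the arrays. H2-Aa was at 2842 CPM against 8484, 8171 and 7994 CPM, and H2-Ab1 at 4836 CPM against 13013, 11288 and 10065 CPM. For these genes and for H2-Eb1 the border lay below every array.

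Of 7 members tested, these 4 were lower at the border, against 0.637% of the 2984 genes tested that were lower and 1.21% called in either direction. The log2 fold change was -1.62 ± 0.33 for Cd74 (adjusted p = 0.00029), -1.58 ± 0.34 for H2-Aa (0.0011), -1.54 ± 0.34 for H2-Eb1 (0.0013) and -1.29 ± 0.32 for H2-Ab1 (0.0075). H2-DMa, at 324 CPM against 676, 303 and 372 CPM, had -0.56 ± 0.49, and Ciita had -0.20 ± 1.11, neither called. The comparison rests on 1 border library and 2 residual degrees of freedom, and 0 members were called by DESeq2, without the filter on low counts, or without the third Whole Tumor 2 array. Over the 12 alternatives the log2 fold change stayed at -1.75 to -1.28 for Cd74, -1.76 to -1.24 for H2-Aa, -1.80 to -1.19 for H2-Eb1 and -1.56 to -0.94 for H2-Ab1. Of 17 pathway genes tested only cathepsin D (Ctsd), at 1.54 ± 0.38, was called, in the higher direction.

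The lower level at the border came with a set of cells that had none of the transcripts. Of 104 border cells, 27 (26.0%) had no UMI of the 4 genes, 22 had 1 to 19 UMIs and 55 had 20 or more. None of the 67 Whole Tumor 2 cells and none of 9 Whole Tumor 1 cells lacked them. The 27 cells had a median depth of 4948 UMIs and the Whole Tumor 2 cells 3586 UMIs.

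Other transcripts differed between these cells, in genes chosen after their values were seen and given without a test. Fn1, fibronectin, was at 10183 CPM in the 27 cells, 6344 CPM in cells with 1 to 19 UMIs, 1664 CPM in cells with 20 or more and 113 CPM in Whole Tumor 2. Lyve1, a hyaluronan receptor of tissue-resident macrophages, was at 529, 259, 0 and 53.0 CPM in the same order, and the folate receptor gene Folr2 at 183, 99.0, 15.7 and 17.7 CPM. Itgax, which encodes CD11c, ran the other way at 13.1, 198, 487 and 516 CPM. Lyve1 was carried by few cells, with a UMI in 7 of the 27.

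H2-DMa and Ciita were also low in the cells without chain gene or Cd74 transcripts. H2-DMa was at 45.8 CPM in the 27 cells, 129 CPM in the next set, 537 CPM in cells with 20 or more UMIs and 459 CPM in Whole Tumor 2, and Ciita at 0, 0, 94.2 and 53.0 CPM. Csf1r, the receptor that marks macrophages, was at 2118, 2171, 1526 and 1724 CPM, and Ctss at 4856, 4532, 4782 and 4787 CPM, so neither parted the cells that way. The gate's own genes C1qa, C1qb and C1qc were present in all 27 cells. Over all C1q macrophages of Tumor 2, the monocyte list was at 7.15 per 10000 at the border and at 0.303 to 2.54 in the arrays, and the Mmp12 list at 14.8 and at 6.20 to 11.7. In the order of cell sets used for H2-DMa, Mmp12 itself was at 327, 236, 2010 and 753 CPM. Of the monocyte list, F13a1 was at 1078, 579, 65.9 and 49.5 CPM and Ccr2 at 203, 175, 320 and 148 CPM. The part of these lists in the result was not tested.

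In B cells of Tumor 2, 0 of 8 members tested were called between border and tumor by edgeR, 0 had an unadjusted p under 0.05 and 0 were called by DESeq2, with 0.759% of 1844 genes called in all. The log2 fold change of H2-Ab1 was 0.94 ± 0.60, and that of H2-Aa 0.16 ± 0.61. In alveolar macrophages 0 of 6 were called by edgeR, 1 had an unadjusted p under 0.05 (Cd74, 1.00 ± 0.36) and DESeq2 called 0, against 0.812% of 2094 genes. At the border, 4 of its 12 alveolar macrophages held 96.4% of the UMIs of the chain genes and Cd74. In this class the Ccr7 dendritic list was at 9.17 UMIs per 10000 at the border and at 0.509 to 1.90 in the arrays, and the C1q list at 5.88 and at 0.848 to 0.914, and their part in the values was not tested. Whether these classes differ from C1q macrophages in their change at the border was not tested. No member passed the filter on low counts in T cells.

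Neutrophils carried low summed levels, which were higher in the Whole Tumor 2 arrays. The summed chain genes were at 61.8, 60.9 and 23.6 CPM in the Whole Tumor 1 arrays and at 216, 108 and 202 CPM in the Whole Tumor 2 arrays. Of 5 members tested, 4 were higher in Tumor 2, against 23.2% of 5879 genes that were higher (46.1% in either direction), at 3.25 ± 0.42 for H2-Aa, 2.88 ± 0.44 for H2-Eb1, 2.18 ± 0.38 for H2-Ab1 and 1.71 ± 0.29 for Cd74. TMM, the scaling of libraries by their common genes, moved the median of all genes by 0.87 relative to CPM here, and without TMM the same 4 members were called at 2.38, 2.01, 1.30 and 0.85. The share of cells with a transcript was not higher there, as 391 of 486 Whole Tumor 1 neutrophils (80.5%) and 391 of 459 Whole Tumor 2 neutrophils (85.2%) had no UMI of the chain genes and Cd74, at median depths of 2546 and 1723 UMIs that were not evened out. In Whole Tumor 2, 4 cells held 48.9% of the 272 UMIs of these genes, and the 4 also carried 4 to 13 UMIs of a Ccr7 dendritic, B cell or monocyte list. Without cells that held an excess of a second list the level of the 4 genes went from 115 to 105 CPM in Whole Tumor 1 and from 313 to 197 CPM in Whole Tumor 2, and edgeR called the same 4 members, with H2-Aa at 2.79 and Cd74 at 1.06. Over all barcodes the same genes were higher in Whole Tumor 2 as well, and the part of that in the neutrophil values was not tested.

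At the border of Tumor 2 a few cells of the neutrophil gate held most of the transcripts. At the border of Tumor 1 the top 4 cells held 33.7% of 83 UMIs of the chain genes and Cd74. In Tumor 1, 0 of 5 members were called by edgeR, 1 had an unadjusted p under 0.05 and 0 were called by DESeq2, with 9.56% of all genes called. In Tumor 2, 4 were higher at the border, with H2-Ab1 at 4.01 ± 0.33, against 4.15% of genes that were higher (10.4% in either direction). Yet 4 of the 94 border cells held 88.8% of the 765 UMIs of the chain genes and Cd74. The same cells carried 14 to 31 UMIs of an Mmp12, Ccr7 or B cell list. Their neutrophil lists had 20, 24, 11 and 171 UMIs. In the cells with 280 and 90 UMIs of the chain genes and Cd74, the Mmp12 list, at 31 and 14, exceeded the neutrophil list. Cells with 1 to 19 UMIs of these genes numbered 23 of 94 at the border and 64 of 459 in Whole Tumor 2, and 70.2% (59.9 to 79.2) of border cells and 85.2% (81.6 to 88.3) of Whole Tumor 2 cells had none, at median depths of 1921.5 and 1723 UMIs. Without cells that held an excess of a second list the level fell from 3681 to 810 CPM, and with classes from clustering it was 277 CPM, against 313, 197 and 213 CPM in Whole Tumor 2 by the same 3 definitions. The number of members called was then 1 and 0. The difference between the border effects of the 2 tumors was called for 4 members, against 3.98% of genes that were higher and 12.5% in either direction, and its border library of Tumor 2 includes the same 4 cells.

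Over all barcodes of a library, class II transcripts were far more abundant in Tumor 2. The summed chain genes were at 1185, 1218 and 1055 CPM in the Whole Tumor 1 arrays (mean 1152 ± 86.2, SD, n = 3) and at 9431, 7768 and 7662 CPM in the Whole Tumor 2 arrays (8287 ± 993, SD, n = 3). All 10 members were higher in Whole Tumor 2, against 14.3% of the 11232 genes tested that were higher (25.2% in either direction), and DESeq2 called 8. The log2 fold change was 3.07 ± 0.16 for H2-Aa (adjusted p = 6.9e-10), 3.18 ± 0.16 for H2-Ab1, 2.66 ± 0.20 for Cd74, 2.88 ± 0.19 for H2-DMa, 2.89 ± 0.41 for H2-Ob, 2.75 ± 0.86 for H2-Oa (adjusted p = 0.026) and 1.31 ± 0.32 for Ciita (adjusted p = 0.0056). In sums over all barcodes, fewer cells of a class and less RNA in each cell cannot be told apart.

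The cell classes moved with these sums. C1q, Mmp12 and alveolar macrophages, both dendritic classes and B cells together made up 2.67%, 5.75% and 3.93% of barcodes in the Whole Tumor 1 arrays and 19.8%, 16.6% and 21.9% in the Whole Tumor 2 arrays. C1q macrophages, 4.62% of all barcodes, held 36.1% of the 57054 UMIs of the chain genes and Cd74, and Ccr7 dendritic cells, 1.44% of barcodes, held 14.1%. Neutrophils were 35.4% of barcodes and held 2.26%. Barcodes in no class held 16.5%.

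Border and tumor were related differently in the 2 tumors. At the border of Tumor 1 the summed chain genes were at 58.5 CPM, below all 3 arrays of that tumor, and at the border of Tumor 2 at 8665 CPM, between the arrays. In Tumor 1, 6 members were lower at the border, against 8.37% of genes that were lower (18.3% in either direction): H2-Ab1 at -4.24 ± 0.32, H2-Eb1 at -3.71 ± 0.34, H2-Aa at -3.30 ± 0.30, Cd74 at -2.51 ± 0.34, H2-DMa at -2.36 ± 0.51 and H2-DMb1 at -2.22 ± 0.71. None of the 620 barcodes of that border library fell in the 6 presenting classes, which allows a share of up to 0.484%. H2-Oa had no UMI there, and H2-Ob, at 4.88 CPM against 0.994, 7.43 and 14.3 CPM, had a log2 fold change of -0.11 ± 0.81.

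In Tumor 2, 0 of 10 members were called by edgeR, 2 had an unadjusted p under 0.05 and 0 were called by DESeq2, with 3.19% of genes called. The 2 were Ciita, at 52.0 CPM against 25.9, 13.4 and 20.1 CPM (1.17 ± 0.35, adjusted p = 0.080), and H2-DMa (0.47 ± 0.22). The presenting classes were 35.8% of barcodes in this border library, and C1q macrophages alone held 49.7% of its UMIs of the chain genes and Cd74. The difference of the 2 border effects, tested as an interaction, was called for 6 members, all higher in Tumor 2, against 6.93% of genes that were higher and 14.8% called in either direction.

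**Figure D5:**
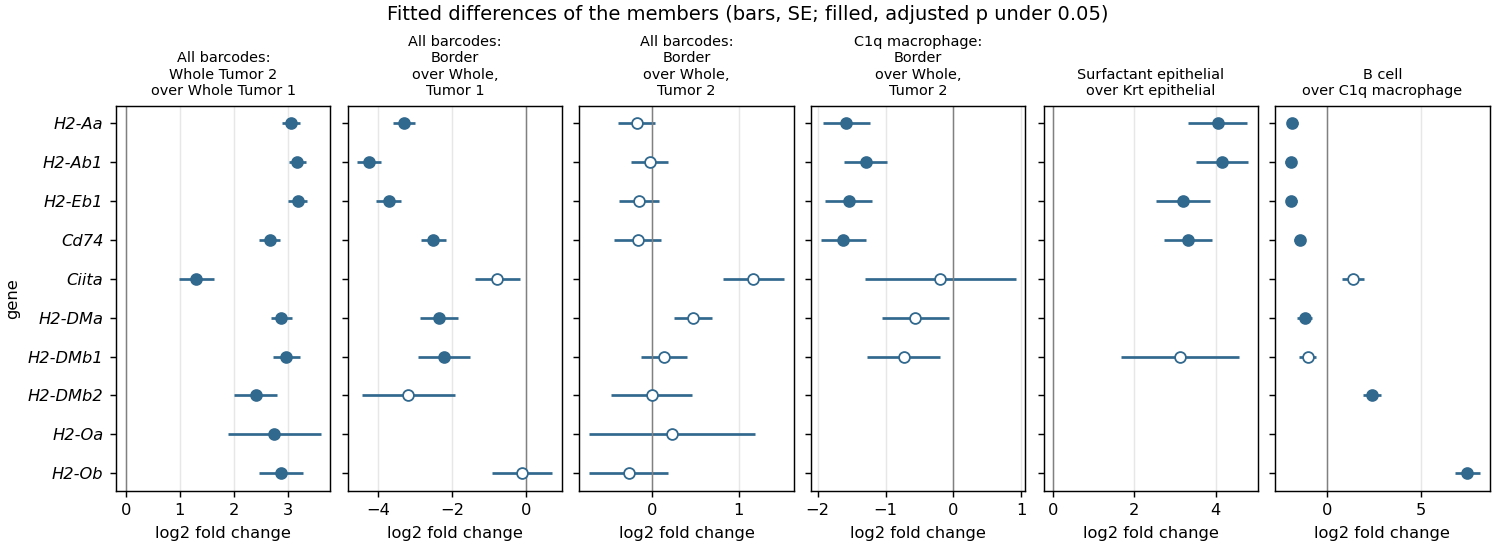
Log2 fold changes of the members in 6 comparisons, with standard errors as bars and filled points for an adjusted p under 0.05 by edgeR; each panel has its own scale and leaves out members that were not tested, and H2-Oa is left out where the border had no UMI. All 10 members are filled and higher in Whole Tumor 2 over all barcodes, and 4 of 7 are filled and lower at the border in C1q macrophages.

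Of the 30 other pathway genes listed, 29 were rows of the tables, and they followed the members only in part. Over all barcodes, 10 of 29 tested were higher in Whole Tumor 2 and 3 were lower, against 14.3% of all genes that were higher and 25.2% called in either direction. Cd83 was higher by 3.53 on the log2 scale, Ctss by 1.98, the interferon-responsive factor Irf1 by 1.80 and the thiol reductase gene Ifi30 by 1.26. Of the 7 factors that act with Ciita 0 were higher and 1 was lower, a share near that of all genes. At the border of Tumor 1, 6 of 29 were higher and 5 lower, where 18.3% of all genes were called and 8.37% were lower.

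The genes outside the members with the pattern most like the summed chain genes were ranked over 16 units of class by tumor with at least 20 cells, among 8961 genes with at least 50 UMIs. The closest were Ly86, which encodes MD-1, a partner of the receptor homologue RP105, at a Pearson r of 0.81, Ifi30 at 0.80, Gm6377 at 0.79, Cd83 at 0.79 and Zbtb18 at 0.79. They were followed by Bmf, Acss1, Lactb, Flrt3 and H2-M2, down to 0.71. Of the members, Cd74 had 0.89, H2-DMb1 0.88, H2-DMa 0.85, H2-DMb2 0.83, Ciita 0.80 and H2-Ob 0.49. The units share libraries and differ in depth, so these values describe the pattern only.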

How the data were processed

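Seq-Well libraries were deposited as tables of raw UMI counts per gene and cell barcode, 1 for each array. Per the labels and the study's methods, the authors demultiplexed with bcl2fastq 2.17.1.14, aligned to mm10 with STAR 2.5.2b in the Drop-seq pipeline, merged UMIs and filtered barcodes before deposit. The strand setting of the counting is not given in the sources used here. Barcodes with at least 200 genes were kept, and median UMIs of kept barcodes ran from 675.5 to 2525.5 in the libraries. The 10 members, the pathway list and the marker lists were chosen with earlier results of these data known, and groups follow the labels.

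A cell entered a class when its UMIs of a marker list exceeded a Poisson background for its depth, with at least 3 UMIs of at least 2 markers. Scrublet marked 57 doublets, which were kept in the main values. The 10 barcodes shared by libraries, all like the amplification primer or a run of 1 base, were treated as separate cells, and 60 such barcodes were left out in an alternative. Counts were summed by class and library, with at least 10 cells (5 for the pairs of classes), filtered on low counts, scaled by TMM and tested with edgeR 4.0.16 (quasi-likelihood, R 4.3.3). P-values were adjusted by Benjamini-Hochberg over all genes tested, with a threshold of 0.05. The main fits between groups had no replicate block. Tests were 2-sided. The named genes are mainly the members, the pathway list, and the 10 genes nearest in pattern over log2(CPM + 10). Also named are Xist, class markers, genes that overlap a member, and Csf1r. Fn1, Lyve1, Folr2 and Itgax were chosen after their values were seen. Floors for a count of 0 are 3 counts of the total.

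Alternatives were CPM scaling in place of TMM, DESeq2 1.42.0, no filter, at least 500 genes, a stricter gate, clusters from scanpy 1.11.5, doublets left out, each array left out, a replicate block and each tumor alone. Leaving out cells with an excess of a second marker list, and primer-like barcodes, was chosen after seeing the data. The fits were tested on simulated data, and no outcome of that is given or used here. H2-Ea-ps was not analysed here, and 1 gated class and its comparison are not reported here.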

Additional observations from a re-analysis of the deposited data

Results flagged for a closer look

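The change from Whole Tumor to Healthy/Tumor Border differed between the tumors by the interaction term of the edgeR fit, Tumor 2 minus Tumor 1. Over all barcodes the difference in log2 fold change was 2.35 for Cd74, 3.12 for H2-Aa, 4.21 for H2-Ab1, 3.56 for H2-Eb1, 2.84 for H2-DMa and 2.35 for H2-DMb1. The border of Tumor 1 held 0 barcodes of the 6 presenting classes and that of Tumor 2 held 35.8%. In neutrophils the difference was 2.37 for Cd74, 4.49 for H2-Ab1, 2.90 for H2-Eb1 and 7.44 for H2-DMa, the last with no UMI in neutrophils at the Tumor 1 border, so its fitted size is no bound. The 4 border cells of Tumor 2 that also carried markers of another class are among the gated neutrophils. With classes from clusters 0 of these differences were called.

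Barcodes with under 200 genes, which no comparison used, also held class II transcripts. In these 449 barcodes the chain genes and Cd74 had 126 of 126612 UMIs, or 995 CPM (829 to 1185).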

How the results depend on the processing

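Of 169 counts of members called under an alternative, 158 stayed within 1.5 times the reported count, and of 1196 fold changes of members 1082 kept direction and side of the threshold, 41 changed sign without being called either way, 49 lost the call, 21 gained it and 3 that were called reversed. These 3 reversals came with classes from clusters in neutrophils, where H2-Aa at the Tumor 2 border went to -0.49, H2-Eb1 to -0.68 and the H2-Eb1 difference between tumors to -1.34. That setting called 0 members at the neutrophil border of Tumor 2 and 0 in the difference, and leaving out cells with a second class called 1 and 1. DESeq2 called 1 member in that difference and 0 in C1q macrophages, where 0 were also called with no filter. Without TMM 1 member was called for neutrophils at the Tumor 1 border, and H2-DMa in B cells over C1q macrophages, at -0.73, was no longer called. The cause was not tested.

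Leaving out 1 array gave 0 to 4 members in C1q macrophages, with 0 without the third Whole Tumor 2 array, 0 to 1 in alveolar macrophages, with 1 without the second Whole Tumor 2 array, and 0 to 1 for neutrophils at the Tumor 1 border, with 1 without the first Whole Tumor 1 array. All genes called then ran from 15 to 37 (C1q), 31 to 83 (alveolar), 8 to 24 (B cells), 402 to 660 (neutrophils, Tumor 2 border), 207 to 492 (all barcodes, Tumor 2 border), 47 to 202 (surfactant over keratin, lowest without the second Whole Tumor 1 array) and 571 to 1230 (B cells over C1q). The lowest counts of the C1q, B cell, neutrophil, all-barcode and B cell over C1q comparisons came without the third Whole Tumor 2 array.

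The number of all genes called moved more. DESeq2 called 1396 for neutrophils between tumors, 340 and 237 at the borders of Tumor 1 and 2 and 414 in the difference. It called 1 in C1q macrophages, 5 in alveolar macrophages, 3 in B cells, and over all barcodes 1420, 1017, 112 and 769 in the same order of comparisons as for neutrophils. With no filter the counts were 363, 308 and 445 for the last 3 neutrophil comparisons, 16 for C1q, 53 for alveolar macrophages and 3 for B cells. With at least 500 genes they were 246, 233 and 279 in neutrophils, 23 in B cells and 106 over all barcodes at the Tumor 2 border. Without TMM they were 1130 at the Tumor 1 border and 1491 in the difference in neutrophils and 2824 in the difference over all barcodes. Clusters gave 37 in B cells and 488 for surfactant over keratin, and the stricter gate 22 in C1q. TMM moved the median log2 fold change of all genes by -1.02 (neutrophil difference) to 0.87 (neutrophils between tumors) relative to CPM.

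The summed chain genes were at 6603 CPM in Ccr7 dendritic cells of Tumor 1 alone, and the other 62 of 63 levels stayed within the spread of libraries. With the replicate number as a block, 4 members and 2261 genes were called between tumors in neutrophils and 9 members and 2755 genes over all barcodes. The numbers share only a label: same-numbered arrays correlated at 0.0075, -0.0056 and 0.0044 in neutrophils and at 0.116, 0.126 and -0.029 over all barcodes, and not every array correlated best with its own number. Each border is 1 library, and Ciita and H2-Oa, with 182 and 47 UMIs in all, are limited by depth.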
